A study of Rattus norvegicus with 24 samples.

Results

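The NR4A orphan nuclear receptors Nr4a1, Nr4a2 and Nr4a3 were followed in cultured rat cortical cells exposed to glutamate. They were chosen by gene ID (ENSRNOG00000007607 for Nr4a1, ENSRNOG00000005600 for Nr4a2 and ENSRNOG00000005964 for Nr4a3), and all 3 were found among the 32754 gene rows of the count table. RNA sequencing covered 8 groups of 3 libraries each. Cells given IS141, AH609, AH236 or DMSO, the solvent control, were each sampled in medium with 250 μM glutamate and in fresh growth medium without this addition. All cultures were rat primary cells on poly-D-lysine that had grown for 8 days before the exchange of medium and were then imaged for 4 h. The strain, the age of the animals, the doses of IS141, AH609 and AH236, what these agents are and when the RNA was taken are not stated in the sources used here. The labels do not tell whether replicates came from separate cultures, and the p-values rest on the spread among the libraries alone, part of which may be technical.

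Library totals ran from 22509400 to 35496447 counts. DMSO replicate 1 in medium stood apart from the other libraries on the second principal component, which carried 4.72% of the variance, and results that change without it are given with and without it. The table has no gene symbols, so the labelled cell type could not be checked against its marker genes. In such bulk samples, fewer cells of a type and less RNA per cell cannot be told apart.

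NR4A proteins are transcription factors of the nuclear receptor superfamily whose ligand pocket is largely filled by their own side chains, so they act mostly through how much of them is made. They bind the NBRE response element as monomers, and Nr4a1 and Nr4a2 can also pair with retinoid X receptors. In neurons the genes are immediate early genes: calcium entry, kinase signalling and the factor CREB switch them on quickly, without new protein synthesis. Nr4a1, also known as Nur77 or NGFI-B, was found as a gene induced by nerve growth factor. Nr4a2, also known as Nurr1, is needed for the development of midbrain dopamine neurons. Nr4a3, also known as NOR-1, is the third receptor of the subfamily.

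The promoter windows are shown because all 3 genes moved together with glutamate. Each runs from 250 bases before to 50 bases after the start of the gene listed by RefSeq, on build GRCr8, and the table held 2 of the 3 members. The Nr4a1 window lies at chr7:134259888-134260187 on the plus strand, and the capitals mark the letters TGCGTCA, a variant of the site that CREB and related factors bind. The Nr4a2 window lies at chr3:62104838-62105137 on the minus strand, and the capitals mark TGACG, the core of that site.
Nr4a1: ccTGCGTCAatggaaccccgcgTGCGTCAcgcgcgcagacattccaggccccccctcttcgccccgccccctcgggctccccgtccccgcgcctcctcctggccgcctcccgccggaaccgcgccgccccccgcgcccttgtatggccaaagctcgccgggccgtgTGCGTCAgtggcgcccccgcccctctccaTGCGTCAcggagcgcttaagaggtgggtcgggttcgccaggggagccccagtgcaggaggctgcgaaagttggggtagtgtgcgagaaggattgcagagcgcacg
Nr4a2: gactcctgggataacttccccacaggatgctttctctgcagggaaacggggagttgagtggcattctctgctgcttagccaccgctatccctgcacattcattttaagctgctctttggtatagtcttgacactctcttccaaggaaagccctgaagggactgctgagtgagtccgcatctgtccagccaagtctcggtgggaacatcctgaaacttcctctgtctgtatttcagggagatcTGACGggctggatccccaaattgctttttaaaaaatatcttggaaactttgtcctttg

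The Nr4a1 window held 4 copies of TGCGTCA, which begin 248, 228, 84 and 55 bases before the listed start. Among 33469 RefSeq promoter windows of this length, 1.9% held TGCGTCA at least once on either strand, and the only window with 4 or more copies was that of Nr4a1 itself. Each copy contains TGACG on the opposite strand, and TGACG was present in 21.2% of all windows. In the Nr4a2 window TGACG occurred once, from 8 to 4 bases before the listed start, and TGCGTCA did not occur. The palindrome TGACGTCA, the AP-1 letters TGANTCA, the NBRE letters AAAGGTCA, the letters TATAAA and the CArG box, searched on both strands, were in neither window. These motifs were in 1.83%, 7.33%, 1.43%, 14.2% and 1.64% of all windows in the same order. The motif letters were chosen after the sequences had been read, and a match is a description, not a bound site.

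Glutamate raised all 3 receptors under all 4 treatments, and no glutamate library overlapped any medium library for any of them. How many of all genes separate in this way was not counted, so ranges given here and below only describe the members. By number of counts, the 3 genes together took 0.138% ± 0.00229 of all counts in IS141 cultures in glutamate, against 0.0319% ± 0.00287 in medium (SD, n = 3 each, as in the rest of this paragraph). The share was 0.142% ± 0.000295 in glutamate and 0.0280% ± 0.00206 in medium with AH609. With AH236 it was 0.144% ± 0.00479 in glutamate and 0.0258% ± 0.0008 in medium. In DMSO cultures it was 0.118% ± 0.00207 in glutamate and 0.0185% ± 0.000551 in medium, the lowest mean of the 4 treatments in either medium.

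**Figure D1:**
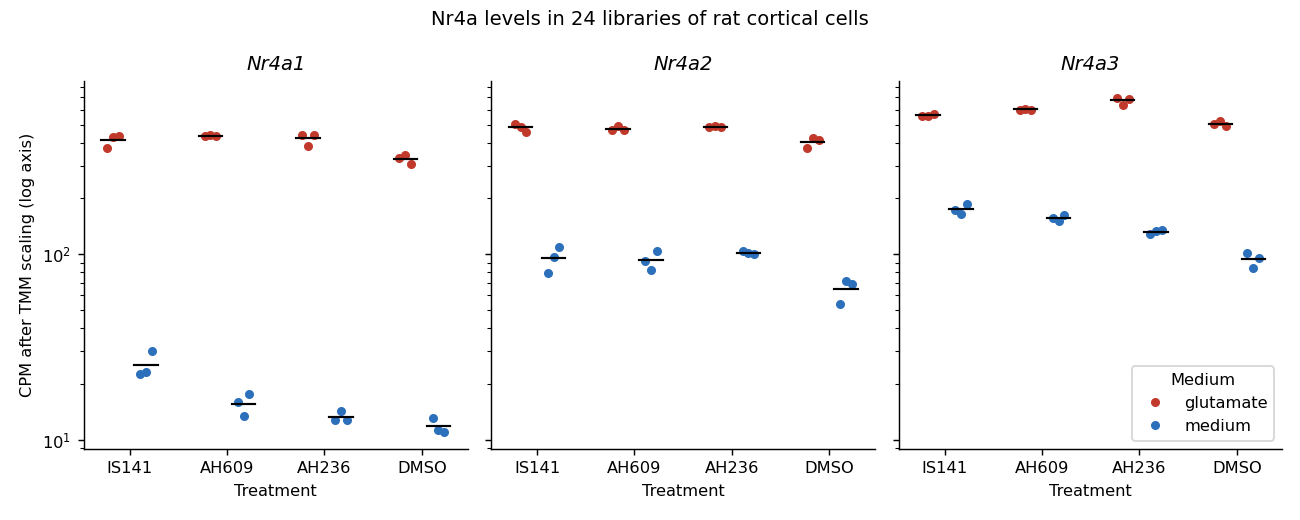
Level of each receptor in every library, in CPM (counts relative to the library's total after TMM scaling) on a log axis, by treatment. Red points are glutamate libraries, blue points are medium libraries and bars are means of 3; the red points lie above all blue points in each panel, and the gap is widest for Nr4a1.

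Nr4a1 had the largest fold change of the 3. Levels are given in CPM, which depend on transcript length and so are not compared between genes, and libraries are in the order of replicates 1, 2 and 3. In IS141 cultures Nr4a1 stood at 374, 426 and 435 CPM in glutamate, against 22.5, 23.3 and 30.2 CPM in medium. With AH609 it stood at 436, 440.1 and 432 CPM in glutamate, against 16.0, 13.4 and 17.6 CPM in medium. The AH236 libraries held 441, 384 and 438 CPM in glutamate and 12.8, 14.3 and 12.7 CPM in medium. Within glutamate the agents' libraries overlapped one another and lay above every DMSO library. DMSO cultures had 331, 344 and 307 CPM in glutamate and 13.2, 11.3 and 10.99 CPM in medium. In medium the IS141 libraries were the highest, and AH609 came next with a range that overlapped AH236 but not DMSO, while AH236 overlapped DMSO.

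The rise of Nr4a1 was 16.3-fold with IS141 (log2 fold change 4.02 ± 0.11, SE; edgeR adjusted p = 8.76e-18) and 27.9-fold with AH609 (4.80 ± 0.11; edgeR adjusted p = 9.22e-19). It was 31.7-fold with AH236 (4.98 ± 0.11; edgeR adjusted p = 3.46e-19) and 27.7-fold in DMSO cultures (4.79 ± 0.11; edgeR adjusted p = 1.32e-18). Being called is no rare event here: at an adjusted p under 0.05, 28.9% of 15908 genes tested rose with glutamate under IS141, 30.1% under AH609, 29.5% under AH236 and 28.6% under DMSO. The size was less common. Over all 4 treatments 38.8% of genes were called higher, and 38 genes, or 0.239%, had a larger log2 fold change than Nr4a1, which rose 25.1-fold (4.65 ± 0.06, SE).

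Nr4a2 rose by a smaller factor. Its libraries held 505, 486 and 458 CPM in glutamate and 78.9, 96.7 and 109.5 CPM in medium with IS141. With AH609 the levels of Nr4a2 were 469.8, 489 and 467 CPM in glutamate and 92.0, 82.1 and 104 CPM in medium. AH236 cultures had 483, 491 and 483 CPM in glutamate, against 103, 102 and 100.3 CPM in medium. In each medium the 3 agents' libraries overlapped one another. The DMSO libraries, at 374, 425 and 413 CPM in glutamate and 54.2, 71.5 and 69.3 CPM in medium, lay below all of them, and in medium the lowest value belonged to DMSO replicate 1.

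The log2 fold change of Nr4a2 with glutamate was 2.35 ± 0.11 with IS141, 2.36 ± 0.11 with AH609, 2.25 ± 0.10 with AH236 and 2.64 ± 0.11 in DMSO cultures (SE), with edgeR adjusted p-values from 1.50e-14 to 1.01e-13. That is 5.09-fold, 5.14-fold, 4.76-fold and 6.22-fold in the same order. Over all 4 treatments Nr4a2 rose 5.27-fold (2.40 ± 0.05, SE; edgeR adjusted p = 4.89e-20), and 306 genes, or 1.92%, had a larger log2 fold change.

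Nr4a3 rose by the smallest factor over the 4 treatments. In IS141 cultures it stood at 558, 559 and 568 CPM in glutamate and 173, 165 and 187 CPM in medium. AH609 libraries had 601, 610.0 and 598 CPM in glutamate and 156, 151 and 164 CPM in medium. With AH236 the values were 698, 638 and 688 CPM in glutamate and 129, 133 and 136 CPM in medium. In DMSO cultures Nr4a3 had 502, 524 and 491 CPM in glutamate and 101, 84.8 and 95.8 CPM in medium. The ranges of 3 libraries did not overlap between any 2 treatments in either medium, though AH609 and IS141 nearly met in medium. The share of all genes with such ranges was not counted. From high to low the order of means was AH236, AH609, IS141 and DMSO in glutamate, and IS141, AH609, AH236 and DMSO in medium. In the fit of all libraries, the tests of AH609 against its neighbours did not pass after adjustment over all genes. This leaves its place between the other agents undecided and does not show equal levels. AH609 against IS141 gave 0.10 in glutamate (log2 fold change; edgeR unadjusted p = 0.0685, adjusted p = 0.537) and -0.16 in medium (unadjusted p = 0.00906, adjusted p = 0.179). AH236 against AH609 gave 0.16 in glutamate (unadjusted p = 0.00601, adjusted p = 0.185) and -0.24 in medium (unadjusted p = 0.000165, adjusted p = 0.187). The difference in medium passed with DESeq2 (adjusted p = 0.0148). With edgeR it passed with the compared groups alone (adjusted p = 0.01025). It also passed with edgeR without DMSO replicate 1 (adjusted p = 0.00473) or DMSO replicate 2 (adjusted p = 0.04695) in medium. The difference in glutamate passed with the compared groups alone (edgeR adjusted p = 0.0214).

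The log2 fold change of Nr4a3 with glutamate was 1.69 ± 0.06 with IS141, 1.94 ± 0.06 with AH609, 2.35 ± 0.06 with AH236 and 2.43 ± 0.06 in DMSO cultures (SE), with edgeR adjusted p-values from 4.80e-21 to 2.21e-18. These are rises of 3.22-fold, 3.85-fold, 5.09-fold and 5.39-fold. Over all 4 treatments the gene rose 4.29-fold (2.10 ± 0.03, SE; edgeR adjusted p = 1.92e-27), with 393 genes, or 2.47%, above it. Scaling by library totals alone shifted all genes' median by -0.19 on the log2 scale in the comparison over 4 treatments, and gave log2 fold changes of 4.46 for Nr4a1, 2.21 for Nr4a2 and 1.91 for Nr4a3.

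**Figure D2:**
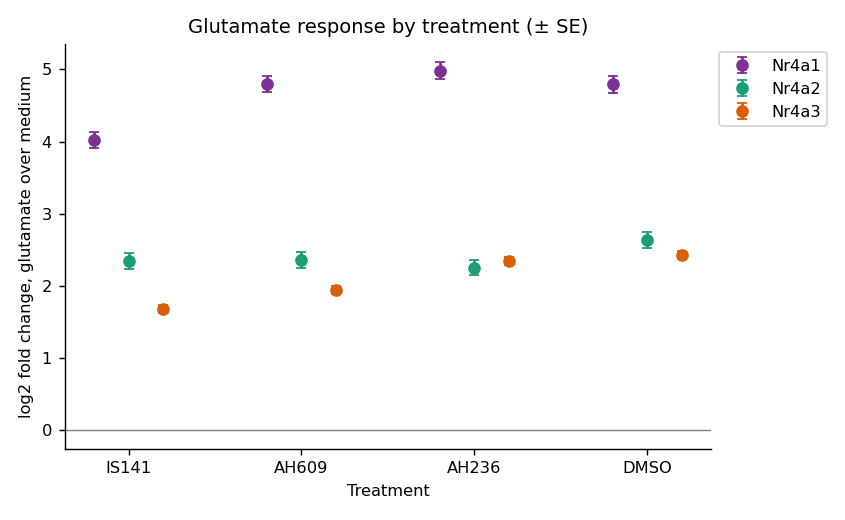
Log2 fold change of glutamate over medium for each receptor (y axis) under each treatment (x axis), with bars for the SE. Nr4a1 lies between 4.02 and 4.98, Nr4a2 between 2.25 and 2.64 and Nr4a3 between 1.69 and 2.43, and the lowest values of Nr4a1 and Nr4a3 are those of IS141.

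The receptors therefore kept different proportions in the 2 media. The ratio of counts of 2 members within a library does not depend on scaling between libraries, although its absolute value still depends on transcript length. The log2 ratio of Nr4a1 over Nr4a2 averaged -0.22 in the 12 glutamate libraries and -2.47 in the 12 medium libraries, a difference of 2.25 (two-sided permutation test within treatments, p = 5e-05, adjusted over 3 ratios 7.5e-05). For Nr4a1 over Nr4a3 the means were -0.56 in glutamate and -3.11 in medium, a difference of 2.55 (permutation p = 5e-05, adjusted 7.5e-05). All 12 glutamate libraries lay above all 12 medium libraries for both ratios. Nr4a1 thus rose more than either relative under all 4 treatments.

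Between Nr4a3 and Nr4a2 the shift was small and uneven. Their log2 ratio averaged 0.34 in glutamate and 0.64 in medium, a difference of -0.30 (permutation p = 0.00299, adjusted 0.00299). It was 0.22 ± 0.0852 in glutamate and 0.89 ± 0.210 in medium with IS141, and 0.34 ± 0.0219 in glutamate and 0.77 ± 0.109 in medium with AH609 (SD, n = 3 each). In neither treatment did the libraries of the media overlap, and the exact permutation test gave p = 0.1 in each, the smallest possible with 3 against 3 libraries. With AH236 the ratio was 0.47 ± 0.0831 in glutamate and 0.38 ± 0.0607 in medium, and with DMSO 0.33 ± 0.0899 in glutamate and 0.54 ± 0.331 in medium (SD, n = 3 each). The media overlapped in both of these treatments, with exact permutation p-values of 0.3 and 0.5.

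**Figure D3:**
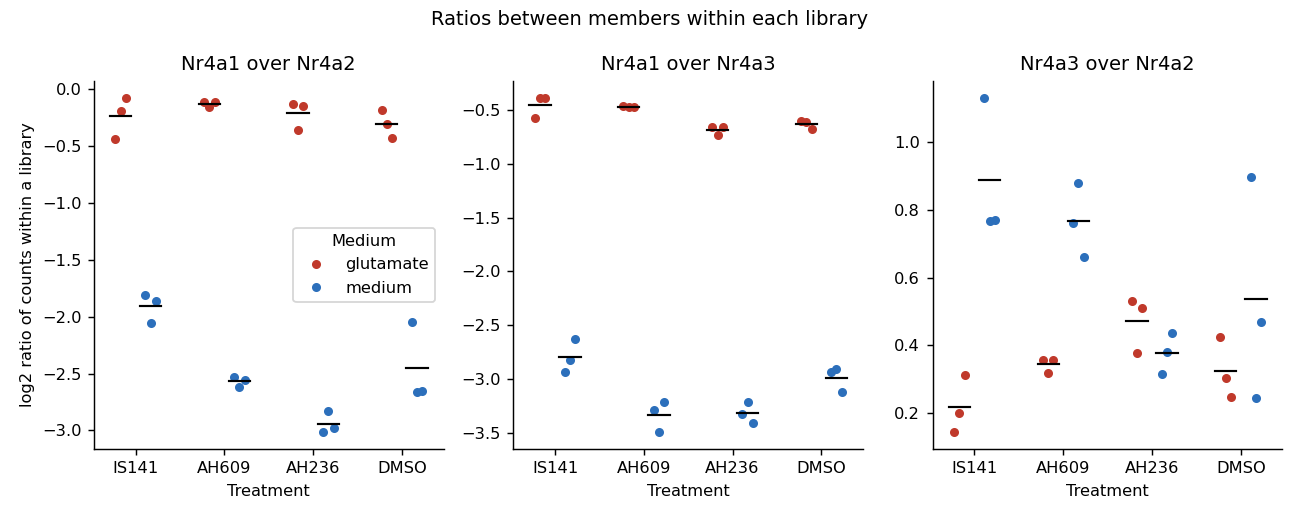
Log2 ratio of the counts of a pair of receptors within each library (y axis), by treatment (x axis), with glutamate in red, medium in blue and bars for means of 3. Both ratios with Nr4a1 on top are higher in glutamate throughout, whereas the ratio of Nr4a3 over Nr4a2 is lower in glutamate with IS141 and AH609 and overlaps between media with AH236 and DMSO.

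Each agent was next compared with DMSO in medium, where the question was whether it altered the receptors without added glutamate. The comparisons share the DMSO libraries, so they are not independent of one another. IS141 raised all 3 genes. Nr4a1 was 2.14-fold higher with IS141 than with DMSO (log2 fold change 1.10 ± 0.11, SE; edgeR adjusted p = 2.67e-06), Nr4a3 1.86-fold (0.90 ± 0.06; adjusted p = 1.61e-10) and Nr4a2 1.46-fold (0.55 ± 0.10; adjusted p = 0.00217). At the same threshold 4.48% of all genes were higher with IS141, and 124 genes, or 0.779%, had a larger log2 fold change than Nr4a1.

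AH609 and AH236 raised Nr4a2 and Nr4a3 in medium. For AH609 the log2 fold changes were 0.74 ± 0.06 for Nr4a3 (edgeR adjusted p = 1.15e-08) and 0.51 ± 0.10 for Nr4a2 (adjusted p = 0.00776), with 2.21% of all genes called higher. For AH236 they were 0.50 ± 0.06 for Nr4a3 (edgeR adjusted p = 2.48e-06) and 0.65 ± 0.10 for Nr4a2 (adjusted p = 0.000398), with 5.55% of all genes called higher. Nr4a1 did not pass the test, at 0.41 ± 0.11 with AH609 (adjusted p = 0.0560) and 0.17 ± 0.11 with AH236 (adjusted p = 0.378; 95% interval from -0.06 to 0.41). The AH609 value of Nr4a1 passed with DESeq2 (adjusted p = 0.00707) and without DMSO replicate 1 (0.49; edgeR adjusted p = 0.0320), AH609 replicate 2 (0.51; adjusted p = 0.0228), IS141 replicate 1 (adjusted p = 0.0483) or IS141 replicate 3 (adjusted p = 0.0180). The Nr4a2 calls with IS141 and AH609 were lost when the compared groups were fitted alone (edgeR adjusted p = 0.176 and 0.276), and the AH609 call also without AH609 replicate 3 (adjusted p = 0.0519).

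In glutamate the same comparison asks whether an agent altered the receptors of exposed cultures. The libraries of each agent lay above those of DMSO for every receptor, with the same DMSO libraries each time. The share of all genes separated like this was not counted. Nr4a1 was higher with IS141 (0.33 ± 0.09, SE; edgeR adjusted p = 0.0313), AH609 (0.41 ± 0.09; adjusted p = 0.0198) and AH236 (0.36 ± 0.09; adjusted p = 0.0159). These are differences of 1.26-fold, 1.33-fold and 1.29-fold, among 4.07%, 1.48% and 6.17% of all genes called higher. These Nr4a1 calls lay near the threshold, and most of the compared libraries were needed to keep them. With 1 library left out, the log2 values ran from 0.28 to 0.39 with IS141. They ran from 0.37 to 0.45 with AH609 and from 0.32 to 0.43 with AH236. The IS141 call was lost without any 1 of the compared glutamate libraries except IS141 replicate 1 (adjusted p = 0.0591 to 0.116), and the AH609 call without any except DMSO replicate 2 (0.0587 to 0.0867). The AH236 call was lost without replicate 1 or 3 of AH236 or of DMSO (0.0556 to 0.0781).

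Nr4a3 was higher in glutamate with AH236, by 1.33-fold (0.42 ± 0.05, SE; edgeR adjusted p = 1.76e-05), and with AH609, by 1.19-fold (0.25 ± 0.05; adjusted p = 0.0101). The AH609 call was lost without AH609 glutamate replicate 2 (adjusted p = 0.0538) or DMSO glutamate replicate 3 (adjusted p = 0.0503). With IS141 the value for Nr4a3 was 0.15 ± 0.05 (adjusted p = 0.0827), past the threshold with DESeq2 (adjusted p = 0.0491) and without DMSO replicate 1 in medium (adjusted p = 0.0325). Nr4a2 did not pass with any agent, at 0.26 ± 0.10 with IS141, 0.23 ± 0.10 with AH609 and 0.27 ± 0.10 with AH236 (edgeR adjusted p = 0.115, 0.247 and 0.0986). Fitted with the compared groups alone, the values for Nr4a2 were 0.26, 0.23 and 0.25 and passed (adjusted p = 0.00937, 0.0192 and 0.00359). Without DMSO replicate 1 in medium, Nr4a2 passed with IS141 (edgeR adjusted p = 0.0490) and AH236 (edgeR adjusted p = 0.0386). With AH236 it also passed without IS141 replicate 1 in medium (edgeR adjusted p = 0.0428) and with DESeq2 (adjusted p = 0.0426).

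**Figure D4:**
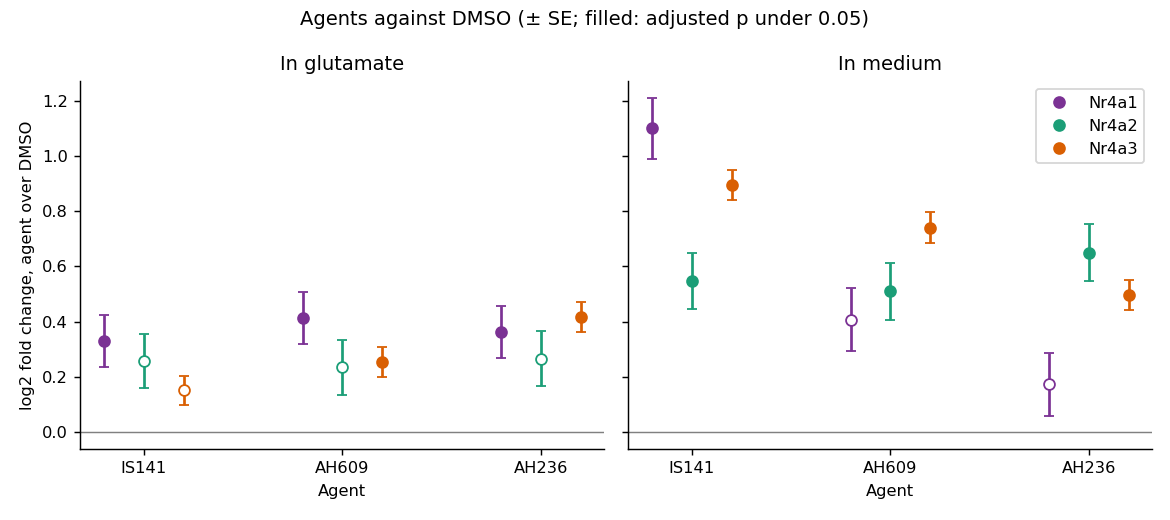
Log2 fold change of each agent over DMSO (y axis) for the 3 receptors, in glutamate on the left and in medium on the right, with bars for the SE and filled points where the adjusted p was under 0.05. In medium the Nr4a1 point of IS141 is at 1.10, that of AH609 at 0.41 and that of AH236 at 0.17, and in glutamate its 3 values lie between 0.33 and 0.41.

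Whether an agent changed the glutamate response itself was tested as the difference between the log2 fold changes with and without the agent. With IS141 the response was smaller than with DMSO for Nr4a1, by -0.77 ± 0.14 (SE; edgeR adjusted p = 0.00957), and for Nr4a3, by -0.74 ± 0.08 (adjusted p = 1.08e-05). Of all genes, 0.559% were called as having a lower response with IS141. In medium the 3 IS141 libraries lay above the 3 DMSO libraries for both genes, and they did so in glutamate too. The Nr4a1 call was lost with the compared groups alone (-0.77; adjusted p = 0.0896), while Nr4a2 was at -0.29 ± 0.14 (adjusted p = 0.523).

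With AH609 the response of Nr4a3 was smaller than with DMSO, by -0.49 ± 0.08 (SE; edgeR adjusted p = 0.0110), and 0.0126% of all genes, 2 of 15908, were called lower. Genes called in either direction numbered 4, against 0 to 214 with 1 library left out, the most without DMSO replicate 1 in medium. The Nr4a3 call was lost with the compared groups alone (adjusted p = 0.204), without AH609 replicate 3 in medium (adjusted p = 0.0544) and without AH609 glutamate replicate 3 (adjusted p = 0.0610). The Nr4a1 difference was 0.01 ± 0.15, or -0.081 without DMSO replicate 1 in medium, and that of Nr4a2 was -0.28 ± 0.14 with AH609 (edgeR adjusted p = 0.9999 and 0.720). With AH236 the differences were 0.19 ± 0.15 for Nr4a1, -0.38 ± 0.14 for Nr4a2 and -0.08 ± 0.08 for Nr4a3 (edgeR adjusted p = 0.625, 0.194 and 0.705). For AH236 1.55% of all genes were called.

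The agents were also set against one another, which uses no DMSO library in the means compared. Averaged over both media Nr4a1 was lower with AH236 than with IS141, by -0.45 ± 0.07 (SE; edgeR adjusted p = 0.000235), with 6.47% of all genes called lower. It was also lower with AH609 than with IS141, by -0.31 ± 0.07 (edgeR adjusted p = 0.0285; 0.949% of all genes), a call that was lost with the compared groups alone (adjusted p = 0.0574). It was also lost without any 1 of AH609 replicates 1 and 2 in either medium, IS141 replicates 2 and 3 in glutamate and IS141 replicate 3 in medium (adjusted p = 0.0505 to 0.0997). In glutamate alone Nr4a1 was not lower, at 0.03 for AH236 and 0.08 for AH609 against IS141, so these averages reflect the medium libraries. Nr4a2 and Nr4a3 did not pass in the comparisons over both media, with values between -0.07 and 0.09. No member passed between AH236 and AH609, where 0.685% of all genes were called.

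Since Nr4a3 was higher with AH236 than with IS141 in glutamate and lower in medium, 9 further comparisons between the agents were added after these levels had been seen. Their tests of Nr4a3 restate the pattern that prompted them. The levels of Nr4a1 and Nr4a2 had been seen by then too, so their tests are also after the fact. In medium Nr4a1 was lower with AH236 than with IS141 (-0.93 ± 0.11, SE; edgeR adjusted p = 4.25e-05; 3.73% of all genes called lower) and lower with AH609 than with IS141 (-0.69 ± 0.11; adjusted p = 0.00456; 0.522% of all genes). Nr4a3 was lower with AH236 than with IS141 in medium (-0.40 ± 0.05; adjusted p = 8.36e-05) but higher with AH236 in glutamate (0.27 ± 0.05; adjusted p = 0.00307; 5.61% of all genes called higher). In glutamate Nr4a1 differed by 0.03 between AH236 and IS141 (95% interval from -0.16 to 0.23; adjusted p = 0.882). Between AH609 and IS141 it differed there by 0.08 (95% interval from -0.11 to 0.28; adjusted p = 0.794). Between AH236 and AH609 in medium Nr4a3 differed by -0.24 ± 0.05 and did not pass (edgeR adjusted p = 0.187, with 0.0503% of all genes called). This difference passed without DMSO replicate 1 (edgeR adjusted p = 0.00473) or DMSO replicate 2 in medium (edgeR adjusted p = 0.04695).

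The glutamate response was larger with AH236 than with IS141 for Nr4a1, by 0.96 ± 0.14 (SE; edgeR adjusted p = 0.000705), and for Nr4a3, by 0.66 ± 0.08 (adjusted p = 3.32e-05), among 1.39% of all genes called higher. Nr4a2 showed a difference of -0.09 ± 0.14 (95% interval from -0.39 to 0.20; adjusted p = 0.849). Between AH609 and IS141 the difference for Nr4a1 was 0.78 ± 0.14 (adjusted p = 0.0540), and between AH236 and AH609 that for Nr4a3 was 0.41 ± 0.08 (adjusted p = 0.0661). Both of these passed with DESeq2 (adjusted p = 0.000102 and 0.00119) and without DMSO replicate 1 in medium (edgeR adjusted p = 0.0110 and 0.00245). Both also passed without DMSO replicate 2 in medium (edgeR adjusted p = 0.0476 and 0.0455). The Nr4a1 difference passed without AH609 replicate 3 in medium too (edgeR adjusted p = 0.0276). The fit of all libraries with edgeR called 1 of 15908 genes for AH609 against IS141 and 0 for AH236 against AH609. With the compared groups alone edgeR called 81 and 126, and without DMSO replicate 1 in medium 95 and 93. At an unadjusted p under 0.05 these contrasts held 855 and 1060 genes, and DESeq2 called 24 and 35.

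Replicates of a group also differed from one another. Of the 3 pairs of members, only Nr4a1 and Nr4a3 passed a test of joint variation, which leaves the pairs with Nr4a2 undecided. Since levels differed between some treatments within a medium, the members were compared by their deviations from group means. For the deviations of log2 CPM from the group mean over the 24 libraries, Nr4a1 and Nr4a3 had a Pearson r of 0.714 and a Spearman rho of 0.767 (permutation within groups, p = 0.0038 and 0.00092, adjusted over 3 pairs 0.0114 and 0.00276). Without the 2 libraries farthest from the median of Nr4a1, r was 0.647. How many other genes deviate as closely with either receptor was not counted, so these values only describe the pair. For Nr4a1 and Nr4a2 r was 0.278 and rho 0.103 (permutation p = 0.464 and 0.722, adjusted 0.696 and 0.807), and r was -0.045 without the 2 farthest libraries. For Nr4a3 and Nr4a2 r was -0.031 and rho 0.070 (permutation p = 0.923 and 0.807, adjusted 0.923 and 0.807), r was 0.457 without the 2 libraries farthest from the median of Nr4a3, and 0.336 without DMSO replicate 1 in medium. That library had the highest Nr4a1 and Nr4a3 and the lowest Nr4a2 of its group.

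**Figure D5:**
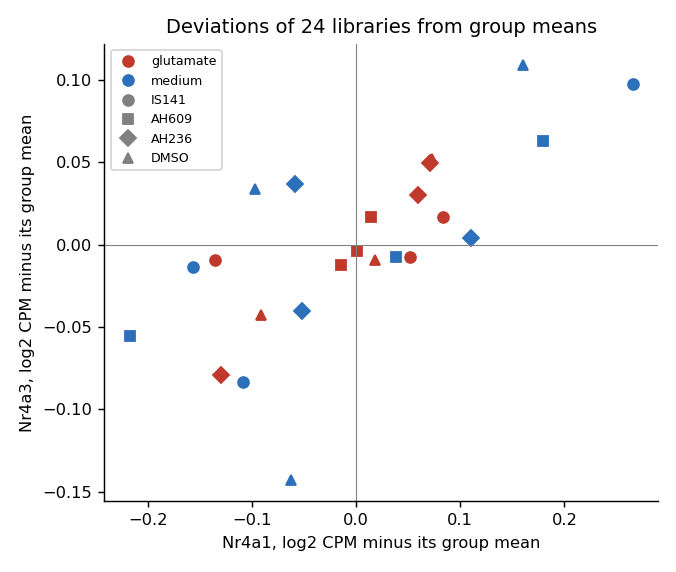
Deviation of each of the 24 libraries from its group mean, in log2 CPM, for Nr4a1 (x axis) and Nr4a3 (y axis), with glutamate in red, medium in blue and a symbol for each treatment. The points run from low in both genes to high in both, with a Pearson r of 0.714.

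Genes with the most similar pattern were looked for among 12166 other genes whose log2 CPM averaged 1 or more, as a description without a test. Over the 8 group means of log2 CPM, the closest to Nr4a1 was ENSRNOG00000024114, with a Pearson r of 0.9997 and a log2 fold change of 2.83 with glutamate over all 4 treatments. The corresponding r was 0.999 for the closest gene to Nr4a2 and 0.998 for the closest to Nr4a3. These points share the large difference between glutamate and medium. Over the 12 glutamate libraries alone, the closest gene to Nr4a3 was ENSRNOG00000005248, with an r of 0.989 and a log2 fold change of 1.40 with glutamate. These libraries share the differences between treatments. The files pair neither ID with a name.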

How the data were processed

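A single table, deposited by the authors, holds unnormalized counts, all whole numbers, for each Ensembl rat gene in 24 libraries. The submitters' processing notes name Rnor_6.0 as the build and STAR 2.7.8a, RSEM 1.3.3, cutadapt 2.3, FastQC 0.11.8 and bcl2fastq as tools, without their roles. Which annotation was used and how strand was handled is not given in the sources used here. Estimates from RSEM can be fractional, so these may be rounded, and reads that similar or overlapping genes share may be split between them. Per the labels' protocols, RNeasy Mini columns gave the RNA and a directional kit the libraries.

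Groups came from the sample titles. A title without a number was called replicate 1, and of a pair of AH236 glutamate titles numbered 2, the later is called replicate 3 here. The symbols Nr4a1, Nr4a2 and Nr4a3 were assigned to the IDs beforehand. No ID could be paired with a symbol through the files (0 matched), so 16 lists of partner, input, target and marker genes could not be applied and gave no result. The rule for named genes was the 3 members plus the 3 nearest genes by likeness, of which at most 2 unnamed IDs are printed. Members and lists were chosen with earlier results of these data known.

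Counts were tested with edgeR 4.0.16 (R 4.3.3): filterByExpr left 15908 genes, all 3 members among them, TMM scaling, robust dispersions, and the quasi-likelihood F test with 1 mean per group in a fit of all 24 libraries. Adjusted p-values are Benjamini-Hochberg over all genes tested in a comparison, with calls under 0.05; each SE was taken as the log2 fold change divided by the root of F. There were 17 comparisons, and 9 were added after values had been seen. CPM, levels per library scaled by TMM, were computed from the deposited counts, and log2 CPM used a prior count of 2. Correlations of members' levels within a medium were replaced by correlations of deviations from group means, because levels differed between treatments within a medium. Permutation tests used 100000 resamples within groups or treatments, or all arrangements for 3 against 3 libraries. The test was also checked on simulated data. Alternatives were RLE size factors, library totals, no filter, DESeq2 1.42.0, the compared groups alone, the title number as a block and leaving out each library.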

Additional observations from a re-analysis of the deposited data

Results flagged for a closer look

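5 differences between glutamate responses passed the test of the difference itself and are listed for a second look, while the other differences tested did not pass. With IS141 minus DMSO the response of Nr4a1 was -0.77 and that of Nr4a3 -0.74, where 0.559% of all genes were called lower. With AH609 minus DMSO the response of Nr4a3 was -0.49, where 0.0126% were called lower. With the compared groups alone the Nr4a1 call with IS141 and the Nr4a3 call with AH609 were lost (edgeR adjusted p = 0.0896 and 0.204). With AH236 minus IS141 the response of Nr4a1 was 0.96 and that of Nr4a3 0.66, where 1.39% were called higher. That comparison was added after the levels of all members had been seen, and its Nr4a3 value restates the pattern that prompted it. The first 3 share the DMSO libraries, and all but the AH609 difference share the IS141 libraries. No group had enough libraries for a check of single outlying samples.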

How the results depend on the processing

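Members were compared under 465 combinations of result and setting other than left-out libraries, and 435 kept direction and side of the threshold, as did 1812 of 1872 with 1 library left out. The rises of all 3 members with glutamate under each treatment kept their calls throughout. So did the calls against DMSO in medium for Nr4a1 with IS141, Nr4a2 with AH236 and Nr4a3 with each agent. Against DMSO, Nr4a3 with AH236 in glutamate and its smaller response with IS141 were kept too. Between agents, every call for AH236 against IS141 was kept, as was that of Nr4a1 for AH609 against IS141 in medium. The replicate numbers did not pair the libraries: deviations correlated between -0.197 and 0.169 (median 0.00372) for libraries with the same title number, against a median of 0.00114 for different numbers, and 8 of 24 libraries correlated best with their own number. With the title number as a replicate block, all 78 member results kept their call, for example Nr4a1 at 1.10 with IS141 in medium. RLE size factors also changed no member's call.

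With the compared groups fitted alone, calls were lost in medium for Nr4a2 with IS141 (0.56) and AH609 (0.51), for the smaller glutamate response of Nr4a1 with IS141 (-0.77) and of Nr4a3 with AH609 (-0.48), and for Nr4a1 in AH609 against IS141 over both media (-0.31). Calls were gained in glutamate for Nr4a2 with IS141 (0.26), AH609 (0.23) and AH236 (0.25). They were gained too for the response of Nr4a3 in AH609 against IS141 (0.26) and, in AH236 against AH609, for Nr4a3 in medium (-0.24), in glutamate (0.15) and in the response (0.40). Nr4a2 in AH236 against IS141 in glutamate turned to -0.0043.

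DESeq2 gained calls for Nr4a1 with AH609 in medium (0.41), Nr4a3 with IS141 in glutamate (0.15), Nr4a2 with AH236 in glutamate (0.27), the response of Nr4a1 in AH609 against IS141 (0.78) and, in AH236 against AH609, Nr4a3 in medium (-0.25) and its response (0.41). Without the filter the Nr4a1 call with IS141 in glutamate was lost (0.34; adjusted p = 0.0539), the response of Nr4a3 in AH236 against AH609 passed (0.40), and the response of Nr4a1 with AH609 against DMSO (-0.0076) and Nr4a2 in AH236 against IS141 in glutamate (-0.013) changed sign. With library totals the Nr4a1 call with AH236 in glutamate was lost (0.29; adjusted p = 0.0557), and calls were gained for Nr4a3 in AH236 against IS141 over both media (-0.12) and the response of Nr4a1 in AH609 against IS141 (0.80). Signs changed there for Nr4a2 in AH236 against IS141 over both media (-0.00012), Nr4a1 (-0.027) and Nr4a2 (-0.050) in AH236 against IS141 in glutamate and Nr4a2 in AH236 against AH609 in glutamate (-0.017).

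With 1 library left out, a call or a sign changed within these ranges of log2 values, and the changes of sign were all in values that did not pass the test. Against DMSO in medium, AH609 ran from 0.31 to 0.51 for Nr4a1 and from 0.40 to 0.59 for Nr4a2. Against DMSO in glutamate, IS141 ran from 0.28 to 0.39 for Nr4a1, 0.20 to 0.29 for Nr4a2 and 0.13 to 0.18 for Nr4a3. In the same comparison AH609 ran from 0.37 to 0.45 for Nr4a1 and 0.23 to 0.28 for Nr4a3, and AH236 from 0.32 to 0.43 for Nr4a1 and 0.21 to 0.30 for Nr4a2. The response with AH609 against DMSO ran from -0.10 to 0.099 for Nr4a1 and from -0.54 to -0.42 for Nr4a3. For AH609 against IS141 the ranges were -0.35 to -0.23 for Nr4a1 and -0.088 to 0.028 for Nr4a2 over both media, -0.16 to 0.076 for Nr4a2 in medium, -0.058 to 0.011 for Nr4a2 in glutamate, and 0.63 to 0.87 for Nr4a1 and -0.097 to 0.13 for Nr4a2 in the response. For AH236 against IS141, Nr4a2 ran from -0.0030 to 0.11 over both media, -0.017 to 0.21 in medium, -0.027 to 0.043 in glutamate and -0.20 to 0.028 in the response, and Nr4a1 from -0.030 to 0.097 in glutamate. For AH236 against AH609, Nr4a3 ran from -0.27 to -0.21 in medium and 0.37 to 0.45 in the response, and Nr4a1 from -0.083 to 0.013 in glutamate. The correlation of deviations ran from -0.0080 to 0.61 for Nr4a1 and Nr4a2 and from -0.31 to 0.34 for Nr4a3 and Nr4a2.

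Counts of all genes called moved more. Against DMSO in medium, the compared groups alone called 62 genes with IS141, 3 with AH609 and 87 with AH236, where the fit of all libraries called 1269, 487 and 1671. For the response against DMSO they called 30, 0 and 18, DESeq2 211, 28 and 443, and the fit of all libraries 124, 4 and 246; without the filter AH609 had 14. Over both media they called 1753 for AH609 against IS141 and 793 for AH236 against AH609, DESeq2 741 and 239, and the fit of all libraries 425 and 109; the replicate block called 64 in the second. Among the added comparisons, the groups alone called 991 and DESeq2 472 for the response in AH236 against IS141, where the fit of all libraries called 300.0 genes. Leaving out 1 library also moved these counts, and the highest count below came without DMSO replicate 1 in medium in each case but AH236 in medium. Against DMSO in medium the ranges were 563 to 1933 with IS141, 223 to 1003 with AH609 and 934 to 2229 with AH236 (1406 without that library). Against DMSO in glutamate they were 605 to 2423, 163 to 995 and 801 to 2530 in the same order of agents, and for the response 68 to 742, 0 to 214 and 77 to 496. For AH609 against IS141 they were 92 to 1374 over both media and 15 to 789 in medium, and for AH236 against AH609 41 to 641 over both media and 2 to 256 in medium. For AH236 against IS141 they were 486 to 2324 in medium, 595 to 2460 in glutamate and 137 to 961 for the response. The shares of genes called that stand beside the members move with these counts. The shared estimate of spread differs between these fits by construction, and the cause of the changes was not tested. With 3 libraries a group, the SE of an agent's log2 difference in glutamate was 0.054 for Nr4a3, 0.093 for Nr4a1 and 0.099 for Nr4a2, which limits what can be called.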
